A study of Mus musculus with 8 samples.

Results

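The 10 genes described here are targets of the ERK pathway that either feed back on it or are induced early by it. They were followed in mouse cells stalled partway through reprogramming (pre-iPSCs) that carried Nanog, Sin3a, both transgenes or empty vectors. The genes are the dual-specificity phosphatases Dusp4, Dusp5 and Dusp6, the Sprouty genes Spry2 and Spry4, and 5 genes of transcription factors. Those 5 are the ETS factors Etv4 and Etv5 and the early response genes Egr1, Egr2 and Fosl1. Every probe of an Illumina bead array annotated to these symbols was taken and kept apart. This gave 15 of 45281 probes, for 9 of the 10 genes, and no probe was annotated to Fosl1. Dusp4 had 4 probes (a to d, from bright to dim), Dusp6 had 3 (a to c), Etv5 had 2 (a and b) and the others 1 each. In a RefSeq gene table of build GRCm38.p6 (the build of the array annotation is not given in the sources used here), Dusp4 lies at chr8:34807610-34819894, Dusp5 at chr19:53529145-53541809, Dusp6 at chr10:99263231-99267489, Spry2 at chr14:105891947-105896819 and Spry4 at chr18:38586247-38601347. Etv4 lies at chr11:101769747-101785310, Etv5 at chr16:22381313-22439570, Egr1 at chr18:34861207-34864956, Egr2 at chr10:67534469-67542188 and Fosl1 at chr19:5447698-5455938.

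In the ERK pathway, growth factor receptors act through Ras, Raf and MEK to activate the kinases ERK1 and ERK2. These kinases enter the nucleus and switch on immediate early genes such as Egr1 without new protein synthesis. The same signal induces its own brakes, namely phosphatases that remove phosphate from ERK and Sprouty proteins that act nearer the receptor. In pluripotent mouse cells, FGF signalling through ERK favours the exit from naive pluripotency, and blocking MEK with an inhibitor, as in 2i medium, helps to hold it.

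The groups were Nanog (a Nanog vector with an empty one), Sin3a (a Sin3a vector with an empty one), Nanog+Sin3a (a vector of each) and EV (empty vectors only), with 2 arrays each and 8 in all. All were female cells of a 129/MF1 background, made from neural stem cells, with a reporter for Oct4, taken at day 0 in serum with LIF and so before the change to medium with a MEK inhibitor. The transgenes were carried by PiggyBac transposons under the CAG promoter and kept by selection with hygromycin, blasticidin or both, so each group was a selected stable population. Whether the 2 arrays of a group stand for separate cultures is not in the labels, and the spread behind every p-value may therefore be technical.

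Values are intensities on a linear scale, and a value below 16 (the floor, 4 on the log2 scale) was raised to 16 before taking log2. The Nanog probe ILMN_1245732 read 364.8 and 485.8 with Nanog and 289.5 and 285.2 with Nanog+Sin3a, against values below 0 in the other 4 arrays. Another Nanog probe did not separate these arrays, at 5.6 to 21 with a Nanog transgene and -4.8 to 14.4 without one. The Sin3a probe read 1141.6 to 1484.7 with a Sin3a transgene against 261.8 to 472.5 without one. Of 14 pluripotency markers, 10 rose above the floor on at least 1 of 7 arrays, and Dppa3, Esrrb, Prdm14 and Utf1 did not. A probe above the floor on at least 2 of these arrays was found for 7 of the 14. Pou5f1 read 554.4 to 742.3 and 903.5 to 1167.3 in its 2 probes, while Sox2 reached at most 42.6 and Zfp42 at most 28.9. The second Sin3a array disagreed with the first by over 1 on the log2 scale in 68.6% of 9585 probes of middling brightness (log2 means of 5 to 9), against 0.230% to 2.36% between the arrays of the other groups. It did so in 0% of the 2670 bright probes, those with a log2 mean above 9. Comparisons without the Sin3a group were therefore fitted on the other 7 arrays and 18558 probes, and those with it on the bright probes of all 8 arrays.

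Several members were among the probes that disagreed. Of their 14 tested probes, 6 differed by over 1 between the Sin3a arrays, and the sum of such cases over the 3 other pairs of arrays was 1. Etv4 read 278.4 on the first Sin3a array and 19.1 on the second, probe b of Etv5 read 215.4 and 12.7, and probe b of Dusp6 read 116.2 and 7.4. Probe a of Dusp6 was the member above the brightness limit, and it agreed at 1025.5 and 1120.2. The plot of the Sin3a arrays shows the members among all probes. For every other member, the Sin3a group is described by its first array.

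**Figure D1:**
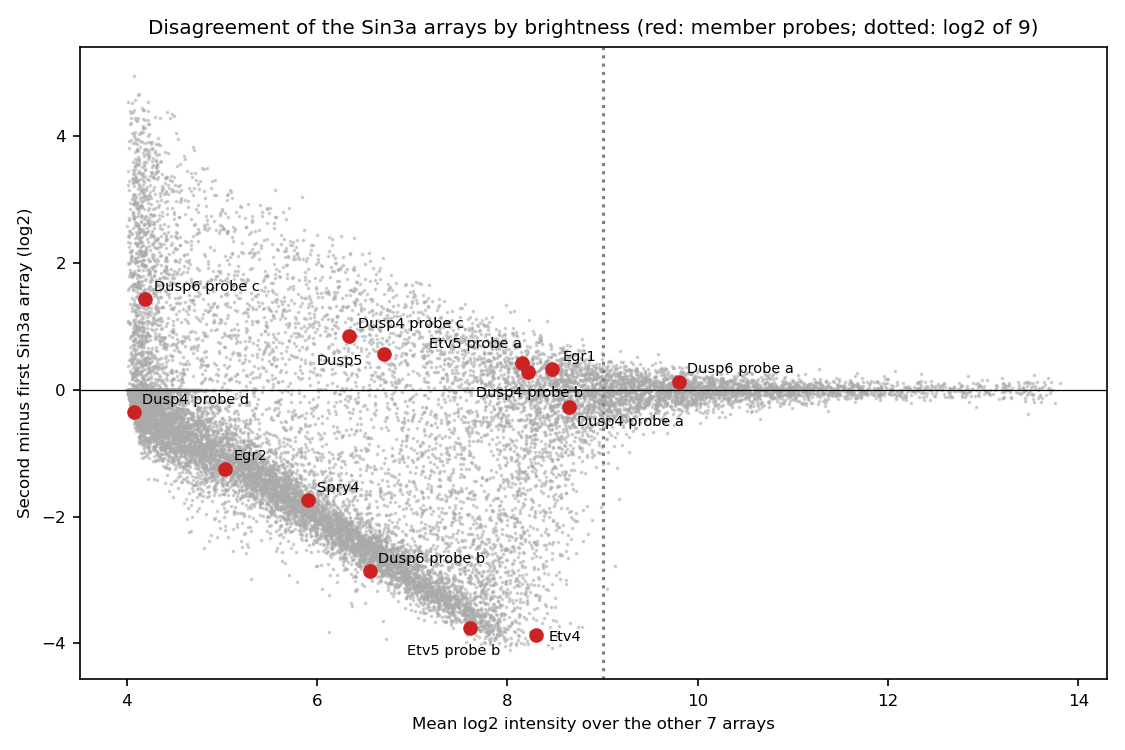
Each grey point is 1 of 18558 probes, with its mean log2 intensity over 7 arrays on the horizontal axis and the second minus the first Sin3a array (log2) on the vertical axis. Red points are the 14 tested member probes. Etv4 (-3.87), probe b of Etv5 (-3.75) and probe b of Dusp6 (-2.86) lie far below 0, and probe a of Dusp6 (0.13) lies near it, to the right of the dotted brightness limit.

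The start regions of Egr2 and Dusp5 are shown because these were the 2 members whose annotated windows held a CArG box. This is the motif bound by serum response factor. RefSeq windows from 250 bases before to 50 bases after an annotated start (build GRCm38.p6) were matched by symbol for 5 of the 10 members, as 10 windows. No window was listed for Dusp4, Spry4, Etv4, Egr1 or Fosl1, so these members were not searched. A CArG box, searched on both strands, was found in 5 of these windows and in 1.63% of all 32817 windows. The 4 closely spaced starts of Egr2 and the single start of Dusp5 account for them, so they come from 2 members. The Egr2 windows that hold CCATATATGG overlap and show the same site again. The 5 windows are therefore not separate matches to set against the share of all windows. In the windows below, the capitals mark the CArG boxes, 2 of which adjoin in Dusp5.
Egr2, chr10:67537619-67537918, plus strand: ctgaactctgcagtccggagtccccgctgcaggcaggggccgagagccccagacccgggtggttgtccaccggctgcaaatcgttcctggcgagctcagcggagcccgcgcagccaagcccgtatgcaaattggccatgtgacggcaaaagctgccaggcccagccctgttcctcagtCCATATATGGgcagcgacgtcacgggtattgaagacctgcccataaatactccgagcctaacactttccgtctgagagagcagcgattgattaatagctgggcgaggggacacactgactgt
Dusp5, chr19:53528895-53529194, plus strand: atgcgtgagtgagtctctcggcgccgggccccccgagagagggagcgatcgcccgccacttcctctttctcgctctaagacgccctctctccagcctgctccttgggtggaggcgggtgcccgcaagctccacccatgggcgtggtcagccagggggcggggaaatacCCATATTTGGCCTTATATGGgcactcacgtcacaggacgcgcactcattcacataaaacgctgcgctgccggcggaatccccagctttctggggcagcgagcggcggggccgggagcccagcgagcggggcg

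The box of Egr2 starts 72 bases before this annotated start, and those of Dusp5 start 82 and 72 bases before theirs. The ETS core CCGGAA, searched on both strands, was in 2 of the 10 member windows, 1 of Egr2 and that of Spry2, and in 14.9% of all windows. The AP-1 site TGANTCA (7.81% of all windows) and the cyclic AMP response element TGACGTCA (1.79%) were in 0 of the 10. A match is a description of these letters and not a bound site, and the windows of Dusp6 and Etv5 held none of the 4 motifs.

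Among the phosphatases, Dusp6, which acts on ERK in the cytoplasm, had the brightest probe of the set. Probe a read 960.6 and 885.5 with Nanog, 1025.5 and 1120.2 with Sin3a, 843.9 and 922.8 with Nanog+Sin3a, and 819.9 and 815.3 with EV. Both Sin3a arrays lay above the other 6, and both EV arrays lay below them. The dimmer probe b read 101.0 and 82.9 with Nanog, 98.3 and 73.3 with Nanog+Sin3a, and 96.8 and 95.3 with EV. It did not repeat the order of probe a, since the EV arrays lay inside the range of the other groups. Probe c was above the floor on 1 of 2 Nanog arrays (36.1), on 1 of 2 Nanog+Sin3a arrays (18) and on neither EV array.

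Dusp4, a nuclear phosphatase of ERK, was steady in its 2 brighter probes. Probe a read 433.2 and 417.4 with Nanog, 378.5 on the first Sin3a array, 394.3 and 379.9 with Nanog+Sin3a, and 407.4 and 396.5 with EV. Probe b read 296.3 and 257.7 with Nanog, 266.5 on the first Sin3a array, 324.1 and 328.7 with Nanog+Sin3a, and 329.6 and 293.0 with EV. The 2 probes ordered the groups differently, with Nanog highest in probe a and lowest but for the Sin3a array in probe b. Probe c lay between 67.9 and 103.3 on the 7 arrays, and probe d was above the floor on the second Nanog array (18) and the first Sin3a array (20.4).

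Dusp5, a nuclear phosphatase that holds inactive ERK in the nucleus, read 97.6 on both Nanog arrays, 132.3 on the first Sin3a array, 96.3 and 96.1 with Nanog+Sin3a, and 105.4 and 105.8 with EV. The arrays of each of these pairs were nearly equal, and the 4 arrays with a Nanog transgene were lower than both EV arrays and than the first Sin3a array.

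The Sprouty genes, which encode inhibitors of signalling from receptor tyrosine kinases, differed in detection. Spry2 was below 0 on all 8 arrays and was not tested, so this probe gives no level. Spry4 read 71.4 and 65.6 with Nanog, 53.3 on the first Sin3a array, 64.4 and 75.1 with Nanog+Sin3a, and 51.0 and 45.4 with EV. The 4 arrays carrying Nanog were all higher than EV and than the first Sin3a array.

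Etv4 and Etv5 encode ETS transcription factors of the Pea3 group, which are induced by FGF signalling in many tissues. Etv4 read 336.0 and 379.8 with Nanog, 278.4 on the first Sin3a array, 323.2 and 307.6 with Nanog+Sin3a, and 280.2 and 308.7 with EV. Probe a of Etv5 read 312.7 and 371.1 with Nanog, 297.4 on the first Sin3a array, 288.2 and 256.4 with Nanog+Sin3a, and 250.0 and 243.0 with EV. In these probes the Nanog arrays were the highest of the 7. The second Sin3a array, left out here, read 400.3 in probe a of Etv5, above both Nanog arrays, and 19.1 in Etv4. Probe b of Etv5 read 235.7 and 261.7 with Nanog, 215.4 on the first Sin3a array, 126.8 and 225.4 with Nanog+Sin3a, and 161.4 and 171.3 with EV, and its Nanog+Sin3a arrays lay on either side of the EV arrays.

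Egr1 and Egr2 encode zinc finger factors of the immediate early response. Egr1 read 396.1 and 449.3 with Nanog, 333.8 on the first Sin3a array, 359.6 and 367.2 with Nanog+Sin3a, and 310.6 and 290.6 with EV. The groups did not overlap on these 7 arrays, and they ran from Nanog at the top through Nanog+Sin3a and the first Sin3a array to EV. The second Sin3a array, left out of this order, read 418.4 for Egr1, above both Nanog+Sin3a arrays and the first Nanog array. Egr2 was much closer to the floor, at 35.7 and 41.2 with Nanog, 37.9 on the first Sin3a array, 21.2 and 22.2 with Nanog+Sin3a, and 39.7 and 39.4 with EV. Both Nanog+Sin3a arrays stood below all 5 others. The plot of intensities shows these values array by array.

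**Figure D2:**
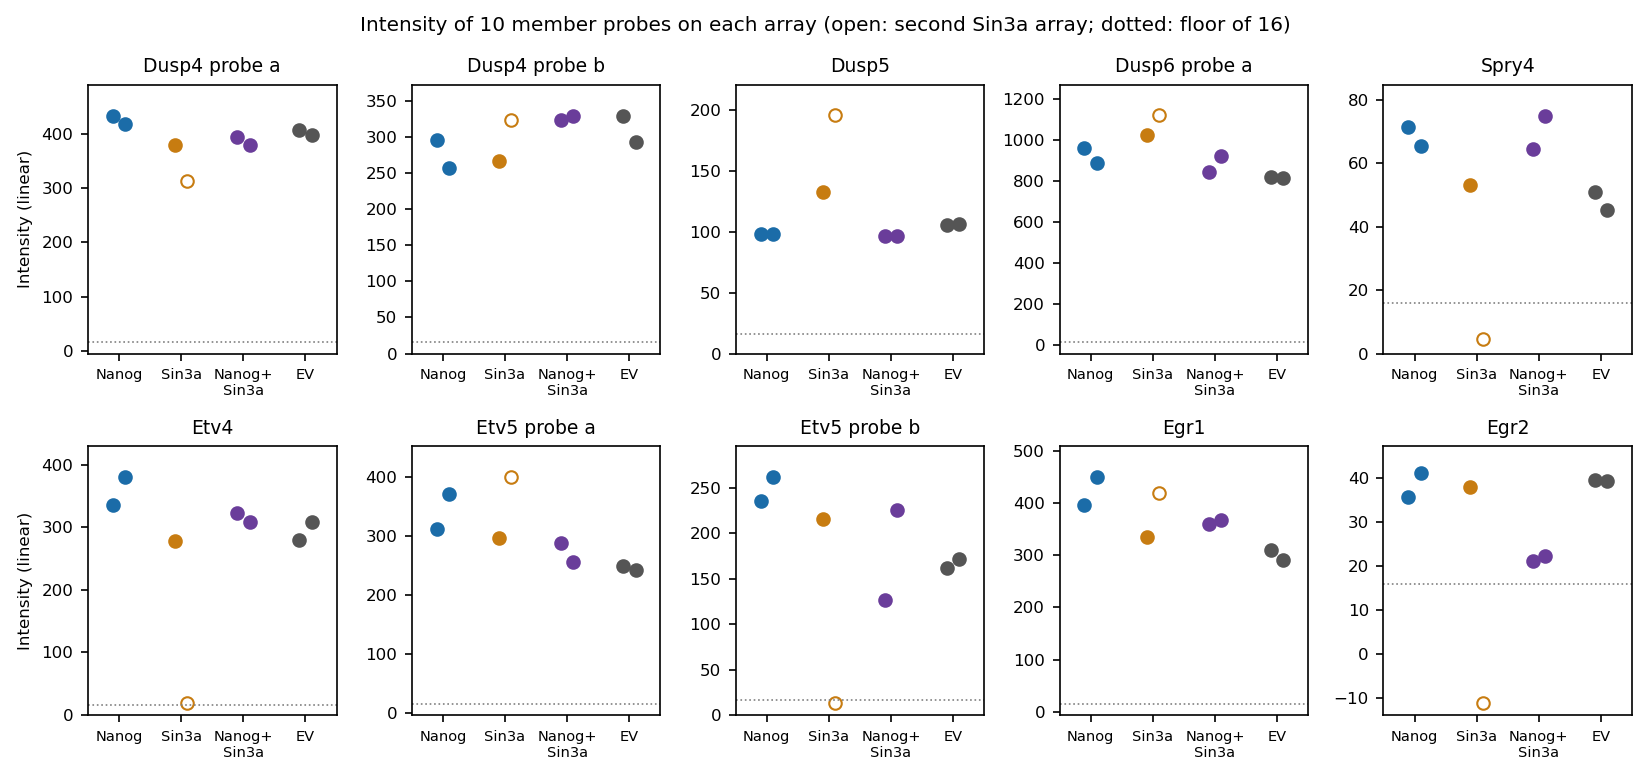
Intensity (linear scale, vertical axis) of 10 member probes on each of 8 arrays by group, with 1 point per array, the second Sin3a array as an open point and the floor of 16 as a dotted line. On the 7 usable arrays, Egr1 is highest with Nanog (396.1 and 449.3) and lowest with EV (310.6 and 290.6). The second Sin3a array (418.4) lies between the 2 Nanog arrays for Egr1. Egr2 is lowest on the 7 usable arrays with Nanog+Sin3a (21.2 and 22.2).

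The effect of the Nanog transgene by itself was read from Nanog against EV. Of the 14 tested member probes, 0 passed at an adjusted p under 0.05 (limma, Benjamini-Hochberg over 18558 probes), while 2.04% of all tested probes did. At an unadjusted p under 0.05 there were 4, or 28.6%, all higher with Nanog, where 9.04% of all tested probes were higher and 18.5% lay in either direction. The 4 were Egr1, probe a of Etv5, Spry4 and Etv4. Egr1 had the smallest adjusted p, at 0.0769, with a value 1.40-fold that of EV (log2 0.49, SE 0.10, 95% interval 0.24 to 0.74, n = 2 against 2). Probe a of Etv5 was at 0.47 (SE 0.12, adjusted p = 0.125) and probe b at 0.58 (SE 0.26, adjusted p = 0.296). Spry4 was at 0.51 (SE 0.19, adjusted p = 0.221) and Etv4 at 0.28 (SE 0.11, adjusted p = 0.246).

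The 2 arrays of Nanog lay above both of EV in 8 of 14 probes, or 57.1%, against 23.9% of all tested probes, and below both in 1, that of Dusp5, or 7.14% against 24.7%. The 8 came from 6 genes, since Dusp4 and Etv5 each gave 2. The median log2 difference was 0.13 over the member probes and 0.00 over all tested probes. These counts cover probes above the floor on at least 2 arrays, and the filter itself can favour a dim probe that is high in 1 group, such as probe c of Dusp6 (0.59, SE 0.36). Of the 8 phosphatase probes, probe c of Dusp6 had the widest difference and the widest interval (-0.29 to 1.46), and 0 of 8 had an unadjusted p under 0.05. For probe a of Dusp6 the value was 0.17 (95% interval -0.04 to 0.39), for probe a of Dusp4 0.08 (-0.13 to 0.29) and for Dusp5 -0.11 (-0.43 to 0.21). Probe b of Dusp6 was at -0.07 (-0.55 to 0.41), and probes b, c and d of Dusp4 were at -0.17, 0.06 and 0.08. For Egr2 it was -0.04 (-0.50 to 0.42).

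Some markers of other cell types differed between these groups too, in 2 of the lists mainly through a single probe. The summed intensity of the 9 fibroblast and mesenchymal markers was 710 to 771 with Nanog and 674 to 736 with Nanog+Sin3a, against 470 to 504 with EV, with Col1a2, Col3a1, Lum, Postn and Prrx1 below the floor on all 7 arrays. Without its brightest probe, of Thy1, the sum was 262 to 266 with Nanog and 332 to 344 with Nanog+Sin3a, against 254 to 286 with EV. Thy1 rose by 1.13 with Nanog and by 0.75 with Nanog+Sin3a against EV (log2, limma adjusted p = 0.0131 and 0.0223). That of the 6 epithelial markers was 865 to 872 with Nanog and 947 to 1278 with Nanog+Sin3a, against 1197 to 1204 with EV, with Cldn4, Epcam and Krt18 below the floor. Nearly all of it was 1 probe of Krt8, without which the sum was 43.4 to 55.9 with Nanog and 48.1 to 79.3 with Nanog+Sin3a, against 77.9 to 80.5 with EV, and Krt8 did not pass with Nanog against EV (-0.45, adjusted p = 0.158). That of the 4 endothelial markers was 112.4 to 117.4 with Nanog and 106.6 to 163.4 with Nanog+Sin3a, against 45.4 to 77.9 with EV, all 4 being above the floor on some array. The 8 neural stem cell markers on the array, those of the cells of origin, summed to 121 to 132 with Nanog and 86.7 to 95.2 with Nanog+Sin3a, against 124 to 144 with EV, with Fabp7, Gfap, Olig1, Olig2, Pax6 and Slc1a3 below the floor. A probe of Nes, which encodes the neural progenitor protein nestin, fell by 0.78 on the log2 scale with Nanog+Sin3a against EV (adjusted p = 0.0427). The other tested probe of Nes did not pass, and its arrays overlapped, at 14.7 and 27.8 with Nanog+Sin3a against 32.4 and 18.6 with EV. The 14 pluripotency markers summed to 2158 to 2508 with Nanog and 2179 to 2399 with Nanog+Sin3a, against 2346 to 2473 with EV. Without the brightest probe, of Pou5f1, the sum was 1200.9 to 1425 with Nanog and 1275.5 to 1333.3 with Nanog+Sin3a, against 1299.7 to 1305.9 with EV. Of the 12 tested probes of these markers 2, both of Sall4, fell with Nanog+Sin3a against EV, or 16.7% against 5.87% of all tested probes called. The Sall4 probes were at -1.32 and -1.37 (log2, limma adjusted p = 0.0329 and 0.0108). Of the 12 probes 7 were higher with Nanog+Sin3a than with EV, and the median difference was 0.09. The part of all these markers in the member values was not tested, and in these bulk samples fewer cells of a type and less RNA per cell cannot be told apart.

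The joint effect of the transgenes was read from Nanog+Sin3a against EV. Again 0 of 14 member probes passed, while 5.87% of all tested probes did, and 3 had an unadjusted p under 0.05, or 21.4% against 24.5%. Of these 2 were higher, where 11.4% of all probes were, and 1 was lower, where 13.1% were. Egr2 showed the widest difference of the set. Its intensity with Nanog+Sin3a was lower than EV by a factor of 1.82 (log2 -0.87, SE 0.19, 95% interval -1.33 to -0.41, n = 2 against 2), and its adjusted p of 0.0520 missed the threshold. With 1 probe per symbol, and so 12987 features to adjust over, the same difference passed (adjusted p = 0.0412), when 7.32% of features did. With array weights it passed as well (0.0337). The weights were equal for the 2 arrays of each group, highest for EV (3.99) and lowest for Sin3a (0.0865). They therefore could not single out the noisy array. The Egr2 difference failed with all 8 arrays (adjusted p = 0.832), without the filter on low values (0.174) and with the replicate number as a block (0.0952). It did not pass in any of 7 refits that left out 1 array each (adjusted p from 0.0506 to 0.251), and raising the floor to 32 cut it to -0.31 (0.148).

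Spry4 and Egr1 were the other members with an unadjusted p under 0.05. Spry4 was at 0.53 (SE 0.19, adjusted p = 0.145), close to its value with Nanog alone, and Egr1 at 0.27 (SE 0.10, adjusted p = 0.168). The remaining values ran from -0.18 for probe b of Dusp6 to 0.24 for probe c of Dusp4. Arrays with both transgenes lay above EV in 5 of 14 probes, or 35.7% against 26% of all tested probes, and below it in 3, or 21.4% against 27.4%, namely Egr2, Dusp5 and probe a of Dusp4. The median over the member probes was 0.08, against 0.00 over all. This comparison and the one before share the EV arrays.

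**Figure D3:**
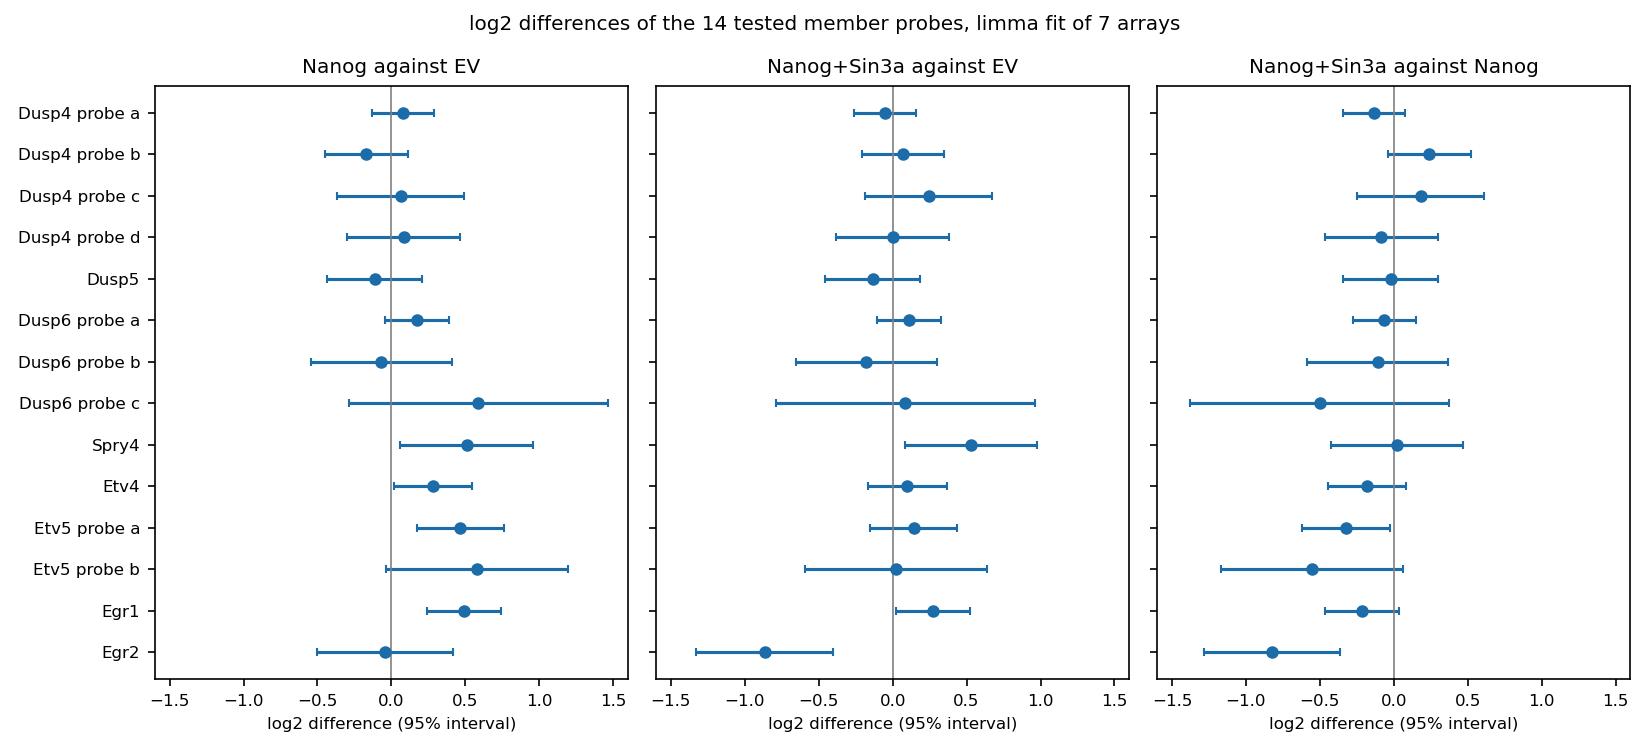
log2 difference (horizontal axis) with its 95% interval from the limma fit of 7 arrays, for the 14 tested member probes (rows) in 3 comparisons. Nanog against EV has Egr1 at 0.49 and probe a of Etv5 at 0.47 with intervals above 0, and Egr2 stands at -0.87 against EV and -0.82 against Nanog in the comparisons of Nanog+Sin3a.

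The effect of Sin3a on top of Nanog was read from Nanog+Sin3a against Nanog. Of the 14 member probes 0 passed, while 0.0162% of all tested probes, or 3 of 18558, did, and 2 had an unadjusted p under 0.05, or 14.3% against 10.4%. Both were lower, where 5.48% of all probes were. They were Egr2, at -0.82 (SE 0.19, 95% interval -1.28 to -0.36, adjusted p = 0.266), and probe a of Etv5, at -0.33 (SE 0.12, adjusted p = 0.431). Arrays with both transgenes lay below those with Nanog alone in 7 of 14 probes, or 50% against 17% of all tested probes, and above them in 1, probe b of Dusp4, or 7.14% against 16.5%. The 7 were both probes of Etv5, Etv4, Egr1, Egr2, Dusp5 and probe a of Dusp4. Probe b of Etv5 was at -0.55 (SE 0.26), Egr1 at -0.22 (SE 0.10) and Etv4 at -0.18 (SE 0.11), and none passed (adjusted p = 0.526, 0.544 and 0.645). Spry4 was at 0.02 (95% interval -0.42 to 0.47). The median over the member probes was -0.12, against 0.00 over all tested probes. It uses the Nanog arrays that gave the first comparison, so the order of these groups in Etv4, Etv5 and Egr1 is not seen in separate samples.

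In the comparisons with the Sin3a group, probe a of Dusp6 was the 1 member among the 2670 bright probes. Its value with Sin3a was 1.31-fold that of EV (log2 0.39, SE 0.12, 95% interval 0.15 to 0.64, n = 2 against 2). The adjusted p was 0.382, so it did not pass, as 0.15% of bright probes did. Its unadjusted p was under 0.05, which held for 7.72% of bright probes, with 3.56% higher. Nanog+Sin3a against Sin3a gave -0.28 (SE 0.12, 95% interval -0.53 to -0.04, adjusted p = 0.118), where 11.6% of bright probes passed. Over the 4 arrays with a Nanog transgene against the 4 without, the difference was -0.05 (95% interval -0.23 to 0.12, adjusted p = 0.679), where 26.1% passed. The interaction, which is the Sin3a effect with Nanog minus that without it, was -0.45 (SE 0.17, adjusted p = 0.687), where 0.0375% passed.

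For the dimmer members, the first Sin3a array was set against the other groups in the 7-array fit, with the spread of that 1 array taken to be like that of the others. Of 14 probes 0 passed for Sin3a against EV, where 0% of all tested probes did (3.55%, or 658, at an unadjusted p under 0.05), and 1, probe a of Dusp6, had an unadjusted p under 0.05. The values ran from -0.22 for probe b of Dusp4 to 0.37 for probe b of Etv5. Dusp5 was at 0.33 (SE 0.16, 95% interval -0.07 to 0.72) and Egr2 at -0.06 (SE 0.23, 95% interval -0.63 to 0.50). In Nanog+Sin3a against the first Sin3a array 0 of 14 passed, where 1.07% of all probes did, with Egr2 at -0.80 (SE 0.23, adjusted p = 0.175) and Dusp5 at -0.46 (SE 0.16, adjusted p = 0.240). In the interaction 0 of 14 passed, again with 0% of all probes, and 4 had an unadjusted p under 0.05, or 28.6% against 5.14%. Egr2 was at -0.76 (SE 0.30, adjusted p = 0.950), probe a of Etv5 at -0.60 (SE 0.20), probe a of Dusp6 at -0.39 (SE 0.14) and probe b of Dusp4 at 0.46 (SE 0.18), and all 4 rest on the 1 Sin3a array. Across the arrays with and without a Nanog transgene, 0 of 14 passed, against 6.54% of all tested probes, and 5 had an unadjusted p under 0.05, or 35.7% against 24.8%. They were Egr1 at 0.31 (SE 0.08, adjusted p = 0.0786), Spry4 at 0.45 (SE 0.15, adjusted p = 0.128), Egr2 at -0.42 (SE 0.15, adjusted p = 0.151), Dusp5 at -0.29 (SE 0.11, adjusted p = 0.160) and Etv4 at 0.23 (SE 0.09, adjusted p = 0.170).

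The other genes of the pathway were taken from 4 lists. Of 11 tested probes of other feedback regulators, for 8 genes, 0 passed in Nanog against EV, in Nanog+Sin3a against EV or in Nanog+Sin3a against Nanog. At an unadjusted p under 0.05 there were 1, 3 and 1, or 9.09%, 27.3% and 9.09%, against 18.5%, 24.5% and 10.4% of all tested probes. The widest differences with Nanog+Sin3a against EV were in Dusp8, at 0.77 (SE 0.19, adjusted p = 0.0656), and Dusp16, at -0.67 (SE 0.20, adjusted p = 0.107), both phosphatases that act mainly on the stress kinases JNK and p38. The other tested probe of Dusp8 was at 0.09 (SE 0.20, adjusted p = 0.808). The probes of Dusp16 disagreed, since the other tested one was at 0.48 (SE 0.16, adjusted p = 0.125). The list's median was 0.16 with Nanog and -0.09 with Nanog+Sin3a, each against EV.

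Of 26 tested probes of other immediate early and ERK-induced genes, for 21 genes, 0 passed in Nanog against EV (7 at an unadjusted p under 0.05, or 26.9% against 18.5% of all probes), and the median was 0.21. Fosl2, which encodes a partner of Jun in the AP-1 factor, was at 0.74 (SE 0.19, adjusted p = 0.114) and Arc at 0.74 (SE 0.22, adjusted p = 0.153). With Nanog+Sin3a against EV 1 passed and 25 did not, or 3.85% called against 5.87% of all probes, and this was a probe of Etv1, the remaining gene of the Pea3 group. This Etv1 probe read 100.3 and 92.5 with Nanog+Sin3a against 158.9 and 168.4 with EV, and fell by 0.76 on the log2 scale (SE 0.13, adjusted p = 0.0258), where Etv4 was at 0.10 and probe a of Etv5 at 0.14. The other 2 tested probes of Etv1, at -0.47 and -0.50, did not pass (adjusted p = 0.273 and 0.212). The Nanog arrays, at 159.3 and 148.2, lay beside those of EV in Etv1, as they did in Egr2. In Nanog+Sin3a against Nanog 0 of 26 passed (2 at an unadjusted p under 0.05, or 7.69% against 10.4%).

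The bright probes of that list were 3 of Ccnd1, the cyclin D1 gene, and 1 of Ier3, and across the 4 arrays with a Nanog transgene against the 4 without, 3 of these 4 rose, where 26.1% of all bright probes were called in either direction. These 3 calls did not hold in the 7-array fit of all tested probes, where Ier3 was at 0.38 (adjusted p = 0.0543) and the 2 Ccnd1 probes at 0.36 each (adjusted p = 0.0667 and 0.0865). Ier3, an immediate early gene, read 723 and 786.2 with Nanog and 641.1 and 629 with Nanog+Sin3a, against 514.3 and 260.1 with Sin3a and 600 and 505.8 with EV, and rose by 0.62 (log2, SE 0.15, adjusted p = 0.00420). Without the second Sin3a array and among bright probes its value was 0.38 (adjusted p = 0.0485). Ccnd1 rose by 0.37 (SE 0.08, adjusted p = 0.00162) and 0.34 (SE 0.09, adjusted p = 0.0102) in 2 probes, and its other probe was at 0.12 (adjusted p = 0.215). The probe at 0.34 did not pass without the first Nanog+Sin3a or the second EV array.

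Among ligands and receptors, 2 of 20 tested probes, or 10%, fell with Nanog against EV and 18 did not pass, against 2.04% of all tested probes called. Kit, the receptor of stem cell factor, read 27.7 and 20.4 with Nanog against 64.2 and 69.8 with EV and fell by 1.49 on the log2 scale (SE 0.22, adjusted p = 0.0312), and Egfr, the EGF receptor, fell by 0.66 in 1 of its 5 tested probes (SE 0.11, adjusted p = 0.0414), with the other 4 at -0.88 to -0.41 and not passing. With Nanog+Sin3a against EV, where 3 of 20 passed, or 15% against 5.87% of all probes, the same 2 probes fell, by 1.23 and 0.73, and Fgfr3, an FGF receptor at the floor in EV, rose at least 3.17-fold (adjusted p = 0.0316). Pdgfa, a ligand of the PDGF receptors, was the bright probe of this list and rose by 0.66 (SE 0.11, adjusted p = 0.000195) over the arrays with a Nanog transgene, but did not pass in the 7-array fit (0.55, adjusted p = 0.0652). In the Ras-Raf-MEK-ERK cascade 0 of 29 probes passed with Nanog (5 at an unadjusted p under 0.05, or 17.2% against 18.5% of all probes). With Nanog+Sin3a 1 of 29 passed, or 3.45% against 5.87%. It was a probe of the adaptor Shc1 (0.57, SE 0.09, adjusted p = 0.0239), whose other 2 probes were at 0.58 and -0.16 and did not pass. Over the 8 arrays with and without a Nanog transgene, 1 of 4 bright cascade probes rose, or 25% against 26.1% of bright probes called. This was the same Shc1 probe, at 0.39 to 0.48 (log2) without 1 array each. None of these calls against EV was kept without any 1 of the 2 EV arrays or without any 1 array of the transgene group, where 0 of all probes passed. Kit and Egfr with Nanog also failed without either Nanog+Sin3a array, where 6 probes passed each time, and held in 1 of 7 refits. With Nanog+Sin3a, Etv1 and Fgfr3 also failed without either Nanog array, where 209 and 473 probes still passed, and held in 1 of 7 refits. Kit, Egfr and Shc1 with Nanog+Sin3a failed without the first Nanog array and held in 2 of 7.

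**Figure D4:**
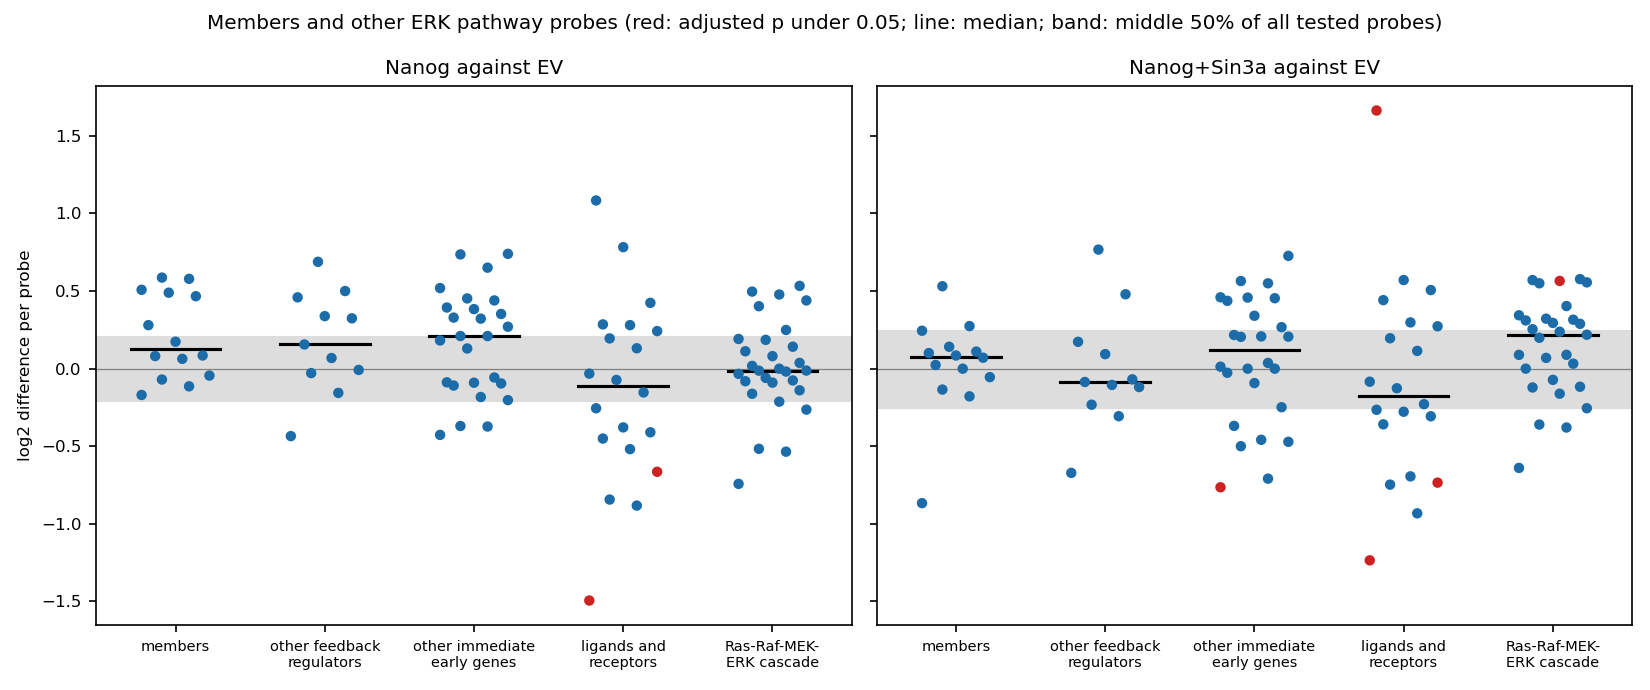
log2 difference against EV (vertical axis) of each tested probe of the members and of 4 other lists of the ERK pathway, for Nanog (left) and Nanog+Sin3a (right), with black lines at list medians, red points where the adjusted p was under 0.05 and a grey band over the middle 50% of all tested probes. No member point is red, and Egr2 stands alone at the bottom of the members on the right (-0.87).

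The genes whose levels followed the members most closely were taken from 2252 bright probes with a symbol, by Pearson correlation of log2 values over the 7 arrays. For probe a of Dusp6 they were Cenpa (r = 0.940), Suz12 (0.883), Ercc3 (0.871), Actn1 (0.858) and Pcgf5 (0.844). For Egr1 they were Banf1 (r = 0.994), Ifitm1 (0.993), Poldip2 (0.974), Clns1a (0.972) and 2810025M15Rik (0.972). The 7 arrays share 4 groups, and these are the highest of 2252 values, so the correlations describe these arrays and were not tested.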

How the data were processed

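Total RNA of 8 samples was hybridised as biotinylated cRNA to Illumina bead arrays. The authors deposited an intensity for each probe, made with GenomeStudio per the submitters' processing notes, whose version and settings are not given in the sources used here. They were background-subtracted (47.3% to 47.7% of values were below 0) and nearly equal in distribution, with sorted values of 7 arrays within 0.618% of their mean above the floor, so no further normalisation was applied. For arrays, the number of arrays limits the precision. The array annotation gave 1 symbol for 34885 of 45281 probes, several for 18 and none for 10378, and a RefSeq gene table changed 0 symbols.

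Values were raised to 16 and converted to log2, and each probe was kept apart. Probes above the floor on at least 2 of 7 arrays (18558), or with a mean log2 value above 9 over 8 arrays (2670), were tested with limma 3.58.1 in R 4.3.3 (lmFit, eBayes with an intensity trend, 1 coefficient per group, 3 and 4 residual degrees of freedom), two-sided, with Benjamini-Hochberg adjustment at 0.05. The procedure was tested on simulated data. There were 7 comparisons. Named genes were all member probes and, from each list, the widest changes (at most 4 probes that passed, or 2 if none passed). Genes most alike were the 5 of highest Pearson correlation with the brightest probe of Dusp6 and of Egr1. The members and lists were chosen with earlier results of these data known. The alternatives were all 8 arrays, no filter, a floor of 32, another brightness limit, quantile normalisation, median centring, 1 probe per symbol, array weights, a replicate block and leaving out each array. The refit of the Sin3a comparisons on 7 arrays and all tested probes was added after the data were seen.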

Additional observations from a re-analysis of the deposited data

How the results depend on the processing

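Of 671 member values recomputed under the alternatives, 654 kept their sign and their side of the threshold, 5 newly passed and 12 changed sign. The 0 member probes called against EV became 1 without the filter on low values (Dusp5, with an adjusted p of 0.0328 for Nanog and 0.0160 for Nanog+Sin3a) and 1 with array weights (Egr1 for Nanog, at 0.0310, and Egr2 for Nanog+Sin3a). For Nanog+Sin3a it was also 1 with 1 probe per symbol (Egr2). The 12 sign changes all came from leaving out 1 array, and the values without 1 array each ran as follows. In Nanog against EV, probe b of Dusp6 ran from -0.21 to 0.073 and Egr2 from -0.15 to 0.059. In Nanog+Sin3a against EV, probe b of Dusp4 ran from -0.014 to 0.16, probe b of Dusp6 from -0.39 to 0.033 and probe b of Etv5 from -0.39 to 0.44. In Nanog+Sin3a against Nanog, probe a of Dusp6 ran from -0.13 to 0.00080, probe b of Dusp6 ran from -0.32 to 0.10, probe c of Dusp6 from -1.09 to 0.085 and Spry4 from -0.088 to 0.13.

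Counts over all probes moved far more. Nanog against EV had 378 calls, against 0 with all 8 arrays, 32 without the filter, 601 with a floor of 32, 972 with array weights, 196 with the replicate number as a block, and 0 to 426 without 1 array each. Nanog+Sin3a against EV had 1090, against 27 with all 8 arrays, 463 among their bright probes, 75 without the filter, 1843 with weights, 573 with the block, and 0 to 1183 without 1 array each. Nanog+Sin3a against Nanog had 3, against 0 with all 8 arrays, 7 among their bright probes, 20 without the filter, 18 with a floor of 32, 8 with weights, 0 with the block, and 0 to 8 without 1 array each. Sin3a against EV had 4, against 2 among bright probes of 7 arrays, 0 among all tested probes, 12 with weights, 2 with the block, and 1 to 14 without 1 array each. Nanog+Sin3a against Sin3a had 309, against 87 and 198 in those 7-array fits and 87 to 488 without 1 array each. Arrays with Nanog against those without had 698, against 421 and 1213, and 366 to 883. The interaction had 1, against 2 with a brightness limit of 8, 0 among all tested probes of 7 arrays, 4 with weights, and 0 to 21. The causes were not tested. The deviations of same-numbered arrays had correlations from -0.053 to 0.016 between groups over tested probes, and from -0.187 to 0.063 over bright probes. Each group gives a single deviation, and that of Sin3a includes the noisy array. Whether the numbers pair the samples therefore cannot be told from these values. Where 1 array was left its spread was assumed to be like that of the other groups. Signal limits Egr2, Spry2, probe d of Dusp4 and probe c of Dusp6, which lay near or below the floor.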
